A study of Homo sapiens with 8 samples.

Results

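The 9 enzymes described here, SQLE, LSS, CYP51A1, MSMO1, NSDHL, HSD17B7, EBP, SC5D and DHCR7, act on the way from squalene to cholesterol. They were chosen by name, among the 16955 genes with a probe that was tested, and each was read at its brightest probe, by the mean over the 8 arrays. All 9 were measured, at 12 probes, and every one of these probes was well above background on all 8 arrays. The RNA came from OVSAHO and KURAMOCHI, 2 established human cell lines of serous ovarian carcinoma, and each line was cultured either with simvastatin or with L-778123, written L778123 in the labels. Each of the 4 groups (OVSAHO with simvastatin, OVSAHO with L-778123, KURAMOCHI with simvastatin and KURAMOCHI with L-778123) had 2 arrays. Simvastatin blocks the making of mevalonate, and L-778123 inhibits both farnesyl transferase and geranylgeranyl transferase, which attach isoprenoid lipids of the same pathway to proteins. No array of untreated cells or of cells given the vehicle was analysed here, so a drug difference contrasts simvastatin with L-778123 and leaves unknown which drug a gene followed. The doses and times of the array cultures are not given in the sources used here.

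As background, squalene is the linear hydrocarbon from which the sterol rings are made. It is oxidized, closed into the ring system of lanosterol, and then stripped of methyl groups and rearranged until cholesterol is formed. The genes of these enzymes are known targets of SREBP2, a transcription factor held in the endoplasmic reticulum while sterols are plentiful and released to the nucleus when they run short. SREBP2 binds sterol regulatory elements in promoters, usually beside sites for NF-Y, which recognizes the CCAAT box, and for Sp1, which recognizes the GC box. A statin blocks the pathway far upstream of squalene, whereas the prenyltransferases lie on a side branch.

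Each level below is a log2 intensity on a scale where the 75th percentile of its array is subtracted, so that 0 is the intensity of that percentile, and levels of different genes are not set against each other. A drug difference is the mean level with simvastatin minus that with L-778123, given with its 95% confidence interval. A gene was called when the adjusted p from limma, with Benjamini-Hochberg adjustment over 33753 probes, was under 0.05 and the fold change was at least 2. The 75th percentile was 324 to 437 on the arrays, 51.8% to 57.5% of probes stood well above background, and saturated spots numbered 0. The arrays lay on 1 slide with each group at positions of its own, and the position and the group of an array cannot be told apart. Of 10 markers of serous carcinoma or Müllerian epithelium, all 10 were well above background on all 8 arrays, whereas none of 6 fibroblast markers was. Of these, COL1A2, DCN and LUM were above background on none of the arrays and COL1A1, COL3A1 and PDGFRB on 4 each, with levels of COL3A1 from -7.07 to 1.58. Of 3 leukocyte markers 2 (PTPRC and CD14), and of 3 endothelial markers 2 (CDH5 and VWF, but not PECAM1), were well above background on all arrays. Their levels were -3.02 to -1.64 for PTPRC, -2.05 to -1.57 for CD14, -2.91 to -2.2 for CDH5 and -3.91 to -0.553 for VWF. The samples were cell lines, and what this signal comes from was not tested. Nothing in the labels says that the replicates came from separate cultures, so the p values measure only the spread between these arrays, which may be technical, and precision is limited by having 2 arrays per group. Fewer cells that express a gene and less of its RNA per cell cannot be told apart. The replicate arrays of a group differed by a median of 0.044 over the 9 enzymes, and by at most 0.31, for MSMO1 in OVSAHO cells with L-778123.

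Promoter sequences of 8 of the 9 enzymes, all but SQLE, were found in a RefSeq table of GRCh38.p14, each running from 250 bases before an annotated start of transcription to 50 bases from it onward. EBP is shown because it had the smallest drug difference in KURAMOCHI cells and was lower with simvastatin in OVSAHO cells. DHCR7 (the first of its 2 start sites), MSMO1 and CYP51A1 were chosen after the values had been seen, as the enzyme with the largest drug difference in KURAMOCHI cells, one with 4 CCAAT boxes, and the only one of the 8 with none. Each sequence is given 5′ to 3′ on the strand of its gene, and the capitals mark the CCAAT box, on that strand (CCAAT) or the other (ATTGG). EBP lies at chrX:48521558-48521857, DHCR7 at chr11:71448344-71448643, MSMO1 at chr4:165327419-165327718 and CYP51A1 at chr7:92134428-92134727, on the plus strand for EBP and MSMO1 and the minus strand for DHCR7 and CYP51A1.
EBP: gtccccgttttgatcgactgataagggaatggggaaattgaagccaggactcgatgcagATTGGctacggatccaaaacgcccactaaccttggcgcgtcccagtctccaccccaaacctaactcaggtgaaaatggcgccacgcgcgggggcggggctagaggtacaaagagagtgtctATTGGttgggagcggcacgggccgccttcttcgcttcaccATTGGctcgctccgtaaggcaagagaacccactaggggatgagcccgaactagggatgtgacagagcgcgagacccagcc
DHCR7: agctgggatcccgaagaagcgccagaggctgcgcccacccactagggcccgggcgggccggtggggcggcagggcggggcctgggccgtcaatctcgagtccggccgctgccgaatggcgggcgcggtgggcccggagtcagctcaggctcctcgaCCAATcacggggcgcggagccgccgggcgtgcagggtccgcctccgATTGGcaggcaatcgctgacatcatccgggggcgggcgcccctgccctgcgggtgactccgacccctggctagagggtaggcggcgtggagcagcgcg
MSMO1: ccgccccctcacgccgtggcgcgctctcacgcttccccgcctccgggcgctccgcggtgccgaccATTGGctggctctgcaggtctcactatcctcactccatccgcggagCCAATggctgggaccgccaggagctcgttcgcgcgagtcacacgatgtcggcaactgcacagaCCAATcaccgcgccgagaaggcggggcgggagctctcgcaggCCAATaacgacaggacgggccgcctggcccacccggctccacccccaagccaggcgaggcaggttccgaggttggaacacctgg
CYP51A1: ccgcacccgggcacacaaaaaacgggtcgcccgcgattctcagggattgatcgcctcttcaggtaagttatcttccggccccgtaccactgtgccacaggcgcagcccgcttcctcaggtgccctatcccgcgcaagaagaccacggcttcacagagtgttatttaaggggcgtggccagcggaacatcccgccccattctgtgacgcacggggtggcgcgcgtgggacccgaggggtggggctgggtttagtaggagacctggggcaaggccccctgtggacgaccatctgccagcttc

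In these windows, counted on both strands, the CCAAT box was found in 7 of the 8 enzymes, against 34.6% of 35114 promoters of the same length. SC5D and DHCR7, with 2 windows each, counted if either window matched, whereas the shares of all promoters count single windows. The window of NSDHL held the most, 5, followed by MSMO1 with 4, EBP with 3, and HSD17B7 and DHCR7 with 2 each. The GC box GGGCGG was found in 7 of the 8, all but NSDHL, against 45% of all promoters. The sterol regulatory element, searched as TCACNCCAC, was found in none of the 8 and in 1.13% of all promoters, which says only that these letters are not in these windows. In EBP the CCAAT boxes began at positions -191, -70 and -30 from the start, and in MSMO1 at -185, -139, -76 and -34. The promoters of EBP and DHCR7 both held CCAAT boxes, and a relation between these motifs and the drug differences was not tested. A match is a description of the sequence and was not tested as a site.

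**Figure D1:**
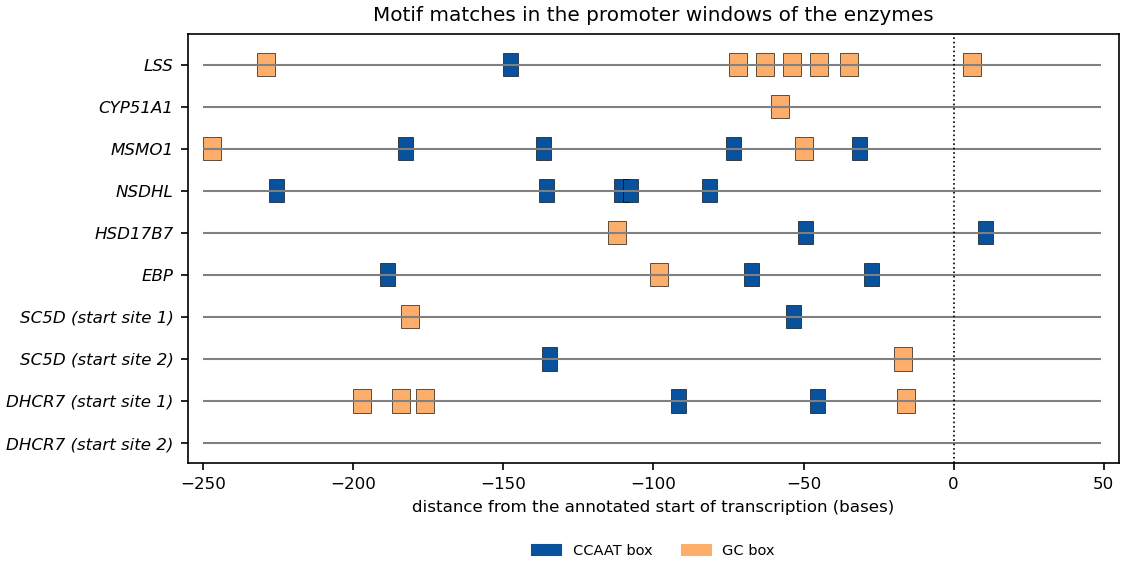
Matches to the CCAAT box (blue) and the GC box (orange), on either strand, in the promoter windows of 8 enzymes, by distance in bases from the annotated start of transcription (dotted line at 0). SC5D and DHCR7 have 2 start sites each, and the second site of DHCR7 held no match to either motif.

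In KURAMOCHI cells all 9 enzymes were higher with simvastatin than with L-778123 (adjusted p under 0.05), and 6 were called at the fold threshold: SQLE, LSS, CYP51A1, MSMO1, HSD17B7 and DHCR7. The adjusted p of EBP ranged up to 0.0627 over the alternatives tried, so that 8 of the 9 kept theirs under 0.05 throughout. Of all 16955 genes, 17.1% were higher at that adjusted p and 2.44% were called higher. The median drug difference of the 9 was 1.24, against 0.012 over all genes. In OVSAHO cells 5 of the 9 were higher and 1, EBP, was lower at an adjusted p under 0.05, where 26.4% and 27.5% of all genes were. Of the 5, SQLE and MSMO1 did not pass under some alternatives, with adjusted p up to 0.121 and 0.104. Only LSS was called higher there, where 5.69% of all genes were, and the median of the 9 was 0.30 against 0.0141 over all genes. None of the 9 was called lower in either line by limma or by the methods' two-way analysis of variance, where 5.88% of all genes in OVSAHO and 2.94% in KURAMOCHI cells were called lower. At an adjusted p under 0.05, 0 were lower in KURAMOCHI cells, where 18.4% of all genes were. At an unadjusted p under 0.05, 1 was lower in OVSAHO and 0 in KURAMOCHI cells, and no share of all genes was taken at that p.

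**Figure D2:**
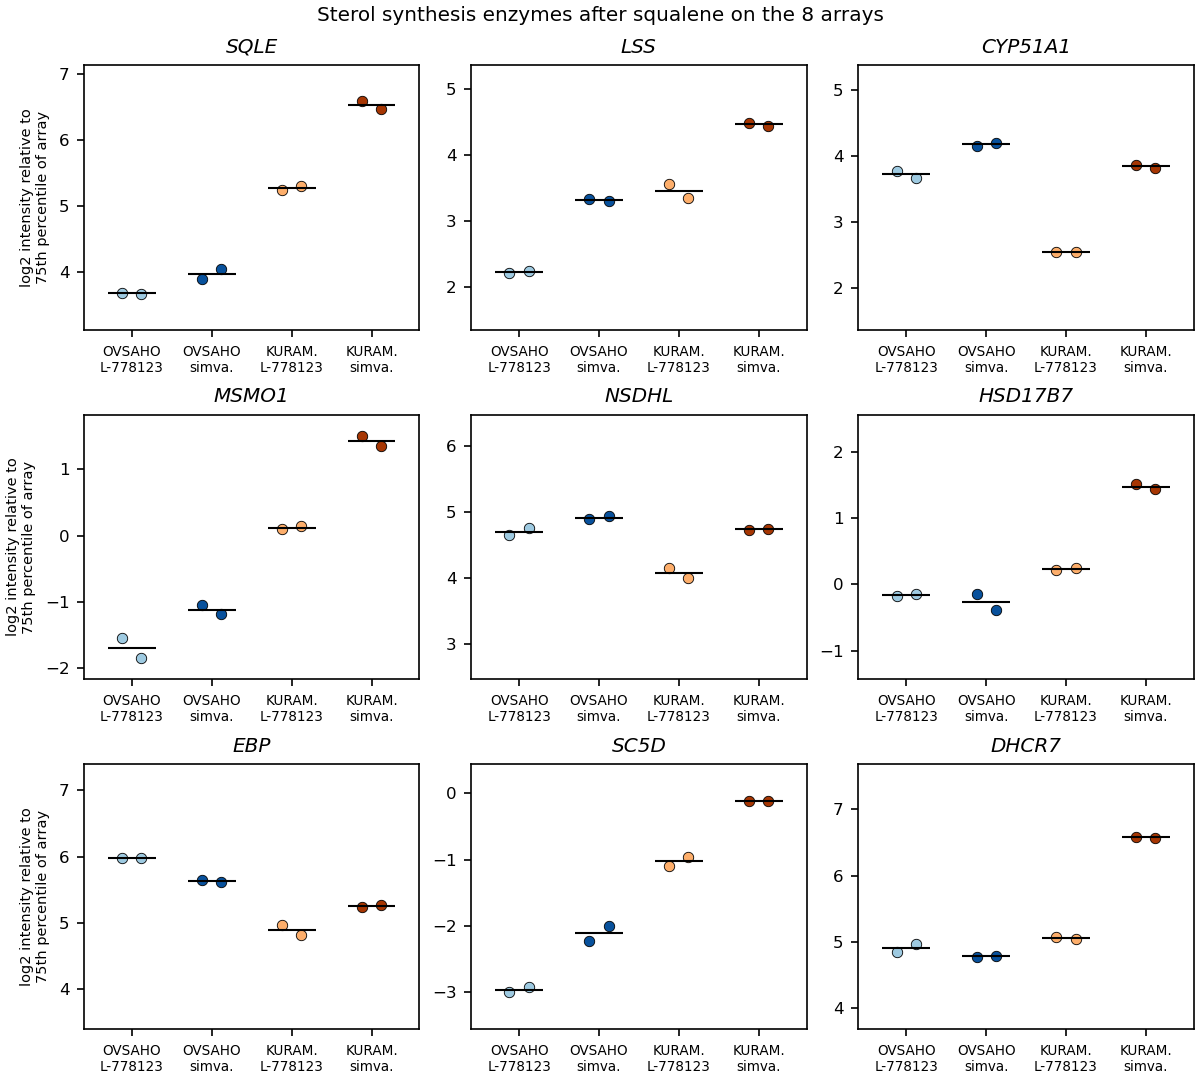
Level of each enzyme on the 8 arrays (points, 2 per group) with the group mean (line), as log2 intensity relative to the 75th percentile of the array. KURAM. stands for KURAMOCHI and simva. for simvastatin, and the panels have axes of equal span that start at different levels. In KURAMOCHI cells both simvastatin arrays lie above both L-778123 arrays in every panel, and in OVSAHO cells EBP and DHCR7 lie below. The share of all genes whose drug groups lie apart in this way was not taken.

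The first 2 steps make the sterol ring. SQLE, squalene epoxidase, adds the oxygen that starts the closure and is considered a rate-limiting enzyme of the branch. At its probe, A_23_P146284, the levels in KURAMOCHI cells were 6.58 and 6.46 with simvastatin and 5.24 and 5.31 with L-778123. In OVSAHO cells they were 3.90 and 4.05 with simvastatin and 3.69 and 3.67 with L-778123. The groups did not overlap in either line, and every KURAMOCHI array was above every OVSAHO array. The drug difference was 1.25 (1.05 to 1.44, a 2.37-fold change, adjusted p = 3.98e-04) in KURAMOCHI cells. In OVSAHO cells it was 0.30 (0.10 to 0.49, 1.23-fold, adjusted p = 0.0239). It missed the threshold by the analysis of variance (adjusted p = 0.121), when dim probes were kept (0.0796), with only the groups compared (0.0561), and without the second simvastatin array (0.107) or the first or second L-778123 array (0.0751 and 0.0842) of that line. The OVSAHO value rests on the scaling between arrays, because the mean intensity before scaling was 5428 with simvastatin and 5436 with L-778123. The 75th percentiles were 324 and 367 on the simvastatin arrays and 411 and 437 on the L-778123 arrays. This scaling enters every drug difference below, in both lines. On the KURAMOCHI arrays the 75th percentiles were 361 and 366 with simvastatin and 399 and 403 with L-778123.

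LSS, lanosterol synthase, closes oxidized squalene into lanosterol. Its levels at probe A_24_P110799 were 4.49 and 4.44 in KURAMOCHI cells with simvastatin and 3.56 and 3.35 with L-778123. In OVSAHO cells they were 3.34 and 3.30 with simvastatin and 2.22 and 2.25 with L-778123. The drug groups were apart in both lines and by nearly the same distance. LSS was 2.12-fold higher with simvastatin in OVSAHO cells (drug difference 1.09, 0.88 to 1.29, adjusted p = 2.77e-04). In KURAMOCHI cells it was 2.02-fold higher (1.01, 0.81 to 1.21, adjusted p = 8.18e-04). Before scaling, the mean intensity in OVSAHO cells was 3455 with simvastatin and 1994 with L-778123. In KURAMOCHI cells it was 8013 and 4394, so that in both lines LSS reached the fold threshold only after scaling. The KURAMOCHI value lies close to the fold threshold and fell to 0.99 without the first simvastatin array, 0.91 without the second L-778123 array of that line and 0.99 with the normexp background correction, which ends the call. A second, much dimmer LSS probe, A_23_P211252, had drug differences of 0.94 in OVSAHO and 1.62 in KURAMOCHI cells, and was called in KURAMOCHI but not in OVSAHO cells.

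The next 4 enzymes strip methyl groups from lanosterol. CYP51A1, the cytochrome P450 that starts the demethylation, had levels of 3.86 and 3.82 in KURAMOCHI cells with simvastatin and 2.55 and 2.55 with L-778123. In OVSAHO cells the levels were 4.16 and 4.20 with simvastatin and 3.78 and 3.67 with L-778123. The lowest group by far was KURAMOCHI with L-778123, and the drug groups did not overlap in either line. The drug difference was 1.29 (1.15 to 1.44, 2.45-fold, adjusted p = 2.07e-04) in KURAMOCHI and 0.45 (0.30 to 0.60, 1.37-fold, adjusted p = 0.00208) in OVSAHO cells. Before scaling, its mean intensity in OVSAHO cells was 6246 with simvastatin and 5614 with L-778123.

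MSMO1, the oxidase that acts on the remaining paired methyl groups, had levels of 1.502 and 1.35 in KURAMOCHI cells with simvastatin and 0.10 and 0.14 with L-778123. In OVSAHO cells they were -1.05 and -1.18 with simvastatin and -1.54 and -1.85 with L-778123. All OVSAHO arrays lay below all KURAMOCHI arrays. MSMO1 was 2.47-fold higher with simvastatin in KURAMOCHI cells (1.30, 1.01 to 1.60, adjusted p = 0.00125) and 1.49-fold higher in OVSAHO cells (0.58, 0.28 to 0.88, adjusted p = 0.0107). The OVSAHO difference missed the threshold by the analysis of variance (adjusted p = 0.104) and without the first simvastatin array of that line (0.0569). NSDHL, the dehydrogenase that removes the oxidized carbon, had levels of 4.73 and 4.74 with simvastatin and 4.15 and 3.998 with L-778123 in KURAMOCHI cells. In OVSAHO cells its levels were 4.89 and 4.93 with simvastatin and 4.65 and 4.75 with L-778123. NSDHL was 1.58-fold higher with simvastatin in KURAMOCHI cells (0.66, 0.48 to 0.85, adjusted p = 0.00221), short of the fold threshold. Its difference of 0.21 in OVSAHO cells (0.033 to 0.40) had an adjusted p of 0.0565, which ranged from 0.0318 to 0.205 over the alternatives tried. That value too rests on the scaling, as the mean intensity before scaling was 10406 with simvastatin and 11003 with L-778123.

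HSD17B7, the reductase that completes the removal of these methyl groups, was called in KURAMOCHI but not in OVSAHO cells. Its levels there were 1.51 and 1.44 with simvastatin and 0.22 and 0.26 with L-778123, without overlap. In OVSAHO cells they were -0.14 and -0.38 with simvastatin and -0.18 and -0.14 with L-778123, and the groups overlapped. The drug difference was 1.24 (1.01 to 1.46, 2.36-fold, adjusted p = 6.65e-04) in KURAMOCHI and -0.10 (-0.33 to 0.13, adjusted p = 0.406) in OVSAHO cells. The interval leaves room for a change of up to 0.33 downward or 0.13 upward in OVSAHO cells. Another pair of HSD17B7 probes gave 1.22 and 1.09 in KURAMOCHI cells, both called, and -0.10 and 0.13 in OVSAHO cells. RefSeq also lists the transcribed pseudogene HSD17B7P2, whose name no probe analysed here carries, and whether the HSD17B7 probes also read it was not tested.

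The last 3 enzymes act on double bonds, which EBP moves, SC5D adds and DHCR7 removes. EBP, the sterol isomerase, had levels of 5.24 and 5.26 in KURAMOCHI cells with simvastatin and 4.96 and 4.81 with L-778123. In OVSAHO cells the order was the opposite, with 5.65 and 5.62 with simvastatin and 5.98 and 5.98 with L-778123. Neither pair of groups overlapped. EBP was 1.29-fold higher with simvastatin in KURAMOCHI cells (0.37, 0.20 to 0.53, adjusted p = 0.0117) and 1.27-fold lower in OVSAHO cells (-0.35, -0.51 to -0.18, adjusted p = 0.00864). The KURAMOCHI difference missed the threshold when dim probes were kept (adjusted p = 0.0515), with only the groups compared (0.0502), by the analysis of variance (0.0627), and without the first (0.0536) or second (0.0579) simvastatin array of that line. The direction in OVSAHO cells was the same under every scaling tried, at -0.40 to -0.31.

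SC5D, the desaturase that makes the direct precursor of the final reduction, had levels of -2.22 and -2.01 in OVSAHO cells with simvastatin and -3.00 and -2.93 with L-778123. In KURAMOCHI cells they were -0.12 and -0.12 with simvastatin and -1.09 and -0.96 with L-778123. The drug groups were apart in both lines. SC5D was 1.80-fold higher with simvastatin in OVSAHO cells (0.85, 0.62 to 1.08, adjusted p = 0.00101) and 1.88-fold higher in KURAMOCHI cells (0.91, 0.68 to 1.14, adjusted p = 0.00170), short of the fold threshold in both. With the normexp background correction the difference in OVSAHO cells was 0.50 and that in KURAMOCHI cells 0.71.

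DHCR7, the reductase of the final step, had the largest drug difference of the 9 in KURAMOCHI cells. Its levels there were 6.59 and 6.56 with simvastatin and 5.07 and 5.04 with L-778123, a 2.87-fold change (1.52, 1.37 to 1.67, adjusted p = 1.52e-04). In OVSAHO cells they were 4.78 and 4.78 with simvastatin and 4.85 and 4.96 with L-778123. The KURAMOCHI simvastatin group stood far above the other 3 groups, which lay within 0.28 of each other. The drug difference in OVSAHO cells was -0.12 (-0.27 to 0.025, adjusted p = 0.140), and -0.068 without the second L-778123 array of that line.

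**Figure D3:**
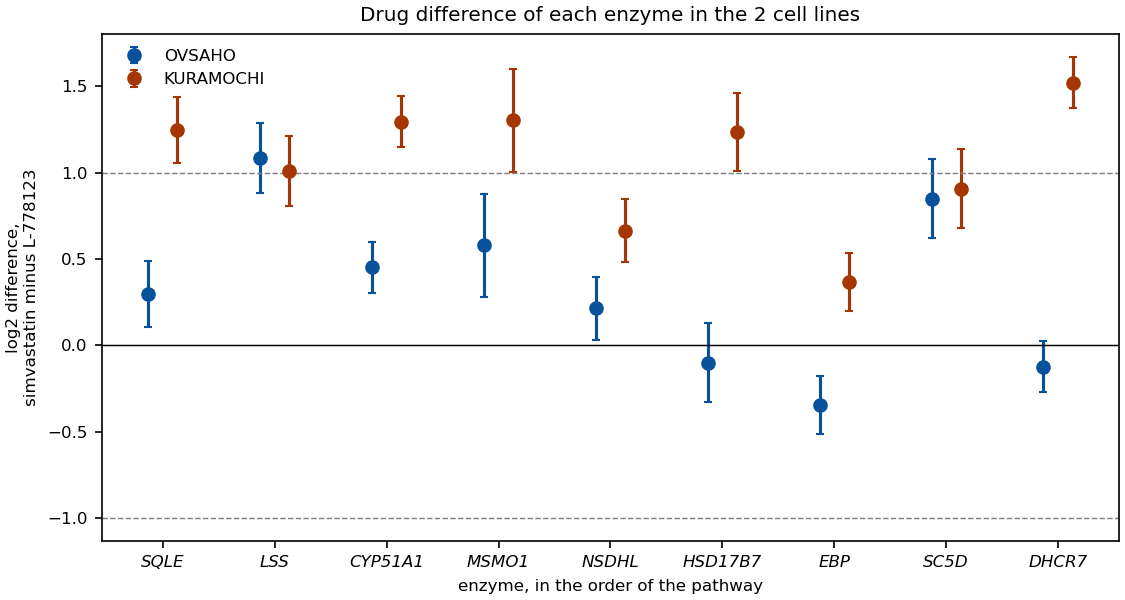
Drug difference, the log2 level with simvastatin minus that with L-778123, of each enzyme in the order of the pathway, in OVSAHO (blue) and KURAMOCHI (orange) cells, with 95% confidence intervals from limma. Dashed lines mark a 2-fold change. All 9 KURAMOCHI intervals lie above 0, while in OVSAHO cells those of HSD17B7 and DHCR7 cross 0 and that of EBP lies below it.

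The next comparison asked whether the drug difference itself differed between the lines, which was tested as the OVSAHO difference minus the KURAMOCHI difference in the same fit. It was lower in OVSAHO cells for 7 of the 9 enzymes at an adjusted p under 0.05, against 14% of all genes, and higher for 0 of 9, against 13.4%. At the fold threshold, 2 were called lower, where 3.3% of all genes were, and 0 were called higher, where 4.29% were, with the same counts from the analysis of variance. No enzyme was higher in OVSAHO cells at an unadjusted p under 0.05 from limma. The 2 called were DHCR7, at -1.65 (-1.86 to -1.44, adjusted p = 4.17e-04), and HSD17B7, at -1.34 (-1.66 to -1.01, adjusted p = 0.00222). For EBP the difference was -0.71 (-0.95 to -0.47, adjusted p = 0.00604), with opposite directions in the 2 lines. SQLE had -0.95 (adjusted p = 0.00378), and it passed the fold threshold without the second OVSAHO simvastatin array, at -1.02, without the second KURAMOCHI simvastatin array, at -1.01, and with quantile normalization, at -1.09. CYP51A1 had -0.84 (adjusted p = 0.00248), MSMO1 -0.73 (adjusted p = 0.0323) and NSDHL -0.45 (adjusted p = 0.0309). These last 2 were not past the test under every alternative, with adjusted p up to 0.0927 for MSMO1 and 0.110 for NSDHL. MSMO1 missed the threshold without any 1 array except the second OVSAHO L-778123 array. NSDHL missed it without any 1 array except the first L-778123 array of either line.

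LSS and SC5D were the enzymes for which no difference between the lines passed the test. For SC5D it was -0.059 (-0.38 to 0.26, adjusted p = 0.782), which leaves room for a difference of either sign. For LSS it was 0.074 (-0.21 to 0.36, adjusted p = 0.685) at the brighter probe, but -0.68 (-0.90 to -0.45, adjusted p = 0.00626) at the dimmer one. The probes of LSS thus disagree on whether the lines differed, while those of HSD17B7 lay at -1.34, -1.32 and -0.96.

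**Figure D4:**
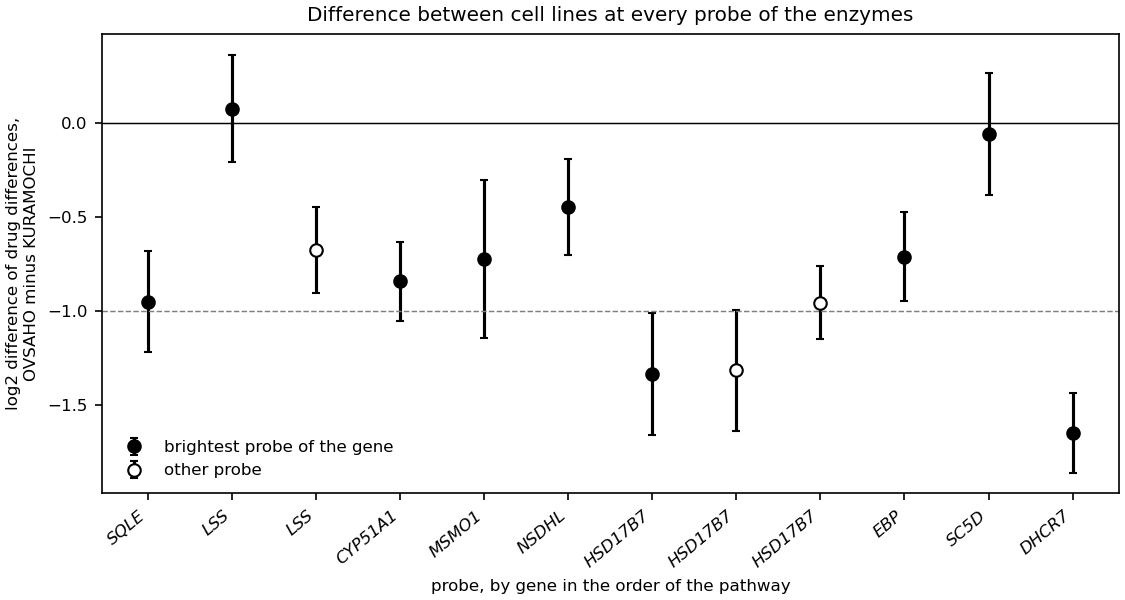
Difference between the lines, the OVSAHO drug difference minus the KURAMOCHI one on the log2 scale, at all 12 probes of the 9 enzymes with 95% confidence intervals from limma. Filled points are the brightest probe of each gene and open points the others, and the dashed line below 0 marks a 2-fold change. The intervals of the brighter LSS probe and of SC5D cross 0, and those of the other 10 probes lie below it.

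The levels of the lines under each drug were compared next. With simvastatin, 6 of the 9 enzymes were called lower in OVSAHO than in KURAMOCHI cells, where 17.3% of all genes were, and 0 were called higher, where 18.9% were. The 6 were SQLE (-2.55), MSMO1 (-2.54), SC5D (-1.999), DHCR7 (-1.80), HSD17B7 (-1.74) and LSS (-1.14), with limma's adjusted p at most 5.62e-05. By the analysis of variance 0 were called higher as well, and at an unadjusted p under 0.05 limma gave 2 that were higher in OVSAHO cells, EBP (0.38, or 0.22 with quantile normalization) and CYP51A1 (0.33). Both were also higher at an adjusted p under 0.05, where 6617 of the 16955 genes were. With L-778123, 4 were called lower in OVSAHO cells, where 16.3% of all genes were, and 2 higher, where 17.9% were. Those called lower were SC5D (-1.94), MSMO1 (-1.82), SQLE (-1.60) and LSS (-1.22). HSD17B7 differed by -0.40 (adjusted p = 0.00957 by limma and 0.0731 by the analysis of variance) and was not called at its brightest probe. Its other probes gave -0.92 and -1.01, the last of which was called by limma (adjusted p = 1.97e-05). Those called higher were CYP51A1 (1.18) and EBP (1.096), and with quantile normalization EBP fell just short of the fold threshold, at 0.999. DHCR7 differed between the lines by -1.80 with simvastatin, but by -0.15 (-0.30 to -0.0031, adjusted p = 0.0656) with L-778123. That adjusted p ranged from 0.0347 to 0.241 over the alternatives tried, and the difference was -0.096 without the first OVSAHO L-778123 array and -0.21 (adjusted p = 0.0385) without the second.

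The order of the 4 groups took several forms. SQLE, MSMO1 and SC5D ran from KURAMOCHI with simvastatin, through KURAMOCHI with L-778123 and OVSAHO with simvastatin, to OVSAHO with L-778123, and each neighbouring pair differed at an adjusted p under 0.05. LSS ran in the same order, with the middle groups 0.13 apart (adjusted p = 0.195). For DHCR7 the KURAMOCHI L-778123 group came before both OVSAHO groups, with neighbours 0.15 and 0.12 apart (adjusted p = 0.0656 and 0.140), while the KURAMOCHI L-778123 group was above the OVSAHO simvastatin group by 0.28 (0.13 to 0.43, adjusted p = 0.00696), without overlap. HSD17B7 ran likewise, and only its OVSAHO groups were not told apart by limma. Its step between the L-778123 groups of the lines missed the threshold by the analysis of variance (adjusted p = 0.0731). CYP51A1 and NSDHL were highest in OVSAHO cells with simvastatin and lowest in KURAMOCHI cells with L-778123. The middle groups of CYP51A1 were 0.12 apart (adjusted p = 0.124), and for NSDHL only the last step passed the test. EBP was highest in OVSAHO cells with L-778123, and every neighbour in its order differed.

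Other genes of the pathway were read from lists written by hand, and they share the arrays of the comparisons above. Of 3 other proteins that act after squalene, limma called 0 in either drug comparison, against 2.44% to 5.88% of all genes by direction. The analysis of variance also called 0 of the 3. At an unadjusted p under 0.05, 1 was higher and 2 lower in OVSAHO cells, and 2 were higher and 0 lower in KURAMOCHI cells. At an adjusted p under 0.05, 1 of the 3 was lower in OVSAHO cells, where 27.5% of all genes were, and 2 were higher in KURAMOCHI cells, where 17.1% were. LBR, a sterol reductase that also anchors chromatin at the nuclear envelope, was lower in OVSAHO cells (-0.55, adjusted p = 0.00143) and differed by 0.035 in KURAMOCHI cells (adjusted p = 0.720). TM7SF2, the other enzyme of that step, was higher in KURAMOCHI cells (0.56, adjusted p = 0.00338), as was ERG28 (0.73, adjusted p = 0.00165), a membrane protein that gathers the demethylating enzymes. All 3 had a lower drug difference in OVSAHO than in KURAMOCHI cells at an adjusted p under 0.05, against 14% of all genes.

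Upstream of squalene, 6 of 8 enzymes from acetyl-CoA onward were called higher with simvastatin in KURAMOCHI cells and 0 of 8 in OVSAHO cells by limma. By the analysis of variance the counts were 5 and 0. Of all genes, limma called 2.44% higher in KURAMOCHI and 5.69% in OVSAHO cells. At an adjusted p under 0.05, 7 of the 8 were higher in KURAMOCHI cells, where 17.1% of all genes were. In OVSAHO cells 4 of the 8 were, where 26.4% of all genes were. At an unadjusted p under 0.05 the counts were 8 and 5. The median drug difference of the 8 was 1.05 in KURAMOCHI and 0.255 in OVSAHO cells. FDPS, which makes the farnesyl unit, was higher in KURAMOCHI (0.38, adjusted p = 0.00600) and lower in OVSAHO cells (-0.58, adjusted p = 7.04e-04). Among 10 genes of sterol sensing and uptake, 2 were called higher in KURAMOCHI cells, INSIG1 (2.66) and STARD4 (1.73), against 2.44% of all genes. In OVSAHO cells INSIG1, which retains SREBP in the endoplasmic reticulum, was called higher (1.02), and SREBF1 was called lower (-1.10). Of all genes there, 5.69% were called higher and 5.88% lower. SREBF2, which encodes SREBP2, was higher by 0.56 in OVSAHO (adjusted p = 7.88e-04) and by 0.63 in KURAMOCHI cells (adjusted p = 0.00121). Its drug differences were 0.066 apart, with an interval of -0.27 to 0.13 for OVSAHO minus KURAMOCHI (adjusted p = 0.601).

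**Figure D5:**
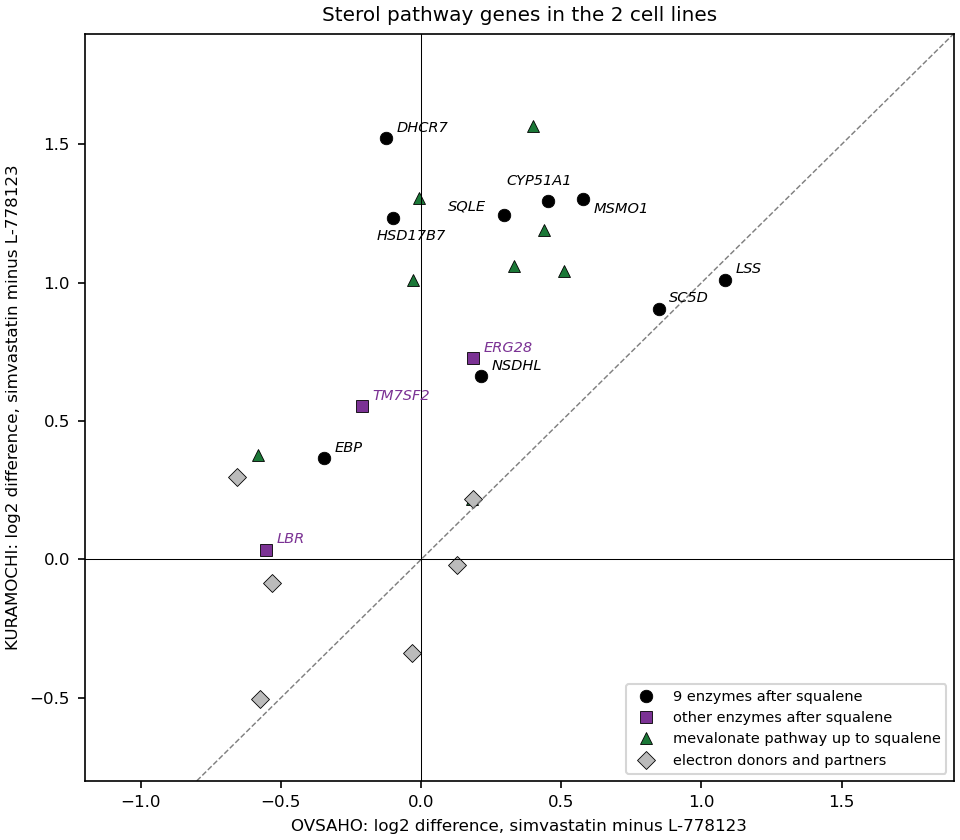
Drug difference of sterol pathway genes in OVSAHO (horizontal) and KURAMOCHI (vertical) cells, each point a gene at its brightest probe, on the log2 scale; the dashed line marks equal differences. LSS and SC5D lie nearest the line among the 9 enzymes (black), and the other 7 lie above it, DHCR7 farthest. The triangle of PMVK lies under the diamond of SEC14L2.

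The genes whose pattern was most like the mean of the 9 enzymes, each centred on its own mean over the arrays, were sought among the 8877 other genes whose group means spanned at least 1 log2 unit. Their likeness was Pearson's r over the 8 arrays, which fall into 4 pairs, so that it rests mostly on 4 group means. The 10 highest were DNAJC22 (0.997), BHLHE41 (0.996), MMAB (0.995), HMGCS1 (0.995), FOS (0.994), ODAD4 (0.989), MVD (0.989), RSPH1 (0.988), ISM1 (0.986) and LRRC32 (0.986). HMGCS1 and MVD are enzymes of the mevalonate pathway, and 239 of the 8877 genes had an r over 0.9. Against the mean of the other 8, HSD17B7 (0.951), DHCR7 (0.946), LSS (0.913), MSMO1 (0.909), SQLE (0.906) and SC5D (0.867) had a high r. NSDHL (0.00617) and CYP51A1 (-0.0288) had an r near 0, and EBP had -0.563.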

How the data were processed

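Total RNA of 8 samples was measured on one-color Agilent arrays, and groups were read from the labels. The authors extracted the images with Agilent Feature Extraction 11.5.1.1, per the submitters' processing notes, and deposited each spot's intensity after background and trend correction within the array. They also deposited a table of linear intensity, whose equal distribution on every array is that of quantile normalization, while the methods state the 75th percentile. It correlated with the scanner values at 0.9991 or more and was used as an alternative. No column was left without a sample.

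Control and outlier spots were left out, which left 39 of 58201 probes without a spot on an array. The log2 intensity was set relative to the array's 75th percentile, and the test took the 33753 of 58162 probes that some group had well above background on each of its arrays. RefSeq names matched 24768 of 50069 identifiers (31079 probes, 16955 genes tested). The groups were compared by limma 3.58.1 under R 4.3.3, using lmFit and eBayes with 1 mean per group, after the fit had been tested on simulated data. Genes named are the 9 enzymes, hand-written pathway lists and the 10 most similar genes. Some genes of these lists are not reported here. The members and lists were chosen with earlier results of these data known. Alternatives changed the filter, background correction (normexp with an offset of 50 on spot medians), normalization, probe, test (a two-way analysis of variance as in the methods, its categories taken as cell line and treatment), threshold, replicate block and arrays. Pairs of groups that neighbour in level were compared in the same fit. Probe positions and sequences were not used, and the array design's genome build differs from the GRCh38.p14 of the promoter table. Python 3.11.15 with matplotlib 3.10.9 drew the figures.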

Additional observations from a re-analysis of the deposited data

Results flagged for a closer look

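For 7 of the 9 enzymes the drug effect differed between the cell lines by limma's test of the difference (adjusted p under 0.05). Each was lower in OVSAHO than in KURAMOCHI cells, and of all genes 14% were lower and 13.4% higher at that adjusted p. The OVSAHO effect minus the KURAMOCHI effect on the log2 scale was -1.65 for DHCR7, -1.34 for HSD17B7, -0.95 for SQLE, -0.84 for CYP51A1, -0.73 for MSMO1, -0.71 for EBP and -0.45 for NSDHL. MSMO1 and NSDHL missed limma's threshold when dim probes were kept (adjusted p = 0.0899 and 0.110) and in most fits that left out 1 array. EBP was lower with simvastatin than with L-778123 in OVSAHO cells and higher in KURAMOCHI cells. The KURAMOCHI difference missed the threshold under some alternatives, such as the analysis of variance (adjusted p = 0.0627). Each group had 2 arrays, too few to look for single arrays that stand apart.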

How the results depend on the processing

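In KURAMOCHI cells 5 to 9 enzymes were called higher under every alternative, and none lower. In OVSAHO cells the count called higher was 0 at the dimmest probe of each gene, 2 with a fold threshold of 1.5 and 5 with no fold threshold, which also called 1 lower. With no fold threshold, 26.4% of all genes were called higher and 27.5% lower in OVSAHO cells, and 17.1% higher in KURAMOCHI cells. For the difference between the lines, the count called lower was 1 at the dimmest probe, 6 with a fold threshold of 1.5 and 7 with none. With no fold threshold 14% of all genes were called lower there, and no share was taken at a fold threshold of 1.5. Between the lines with L-778123, quantile normalization left 1 enzyme called higher in place of 2. Between the lines with simvastatin, dropping the fold threshold gave 2 called higher in place of 0, where 6617 of the 16955 genes were called higher.

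The single values that turned sign were not called in either setting. In OVSAHO cells the HSD17B7 difference was 0.023 without the second simvastatin array and 0.13 at the dimmest probe. The SC5D difference between the lines was 0.049 without the first OVSAHO simvastatin array and 0.00796 without the first KURAMOCHI L-778123 array. The LSS difference between the lines was -0.031 without that KURAMOCHI array and -0.30 as the median over its probes. At the dimmest probe of LSS it was -0.68, which passed limma's test (adjusted p = 0.00626) and fell short only of the fold threshold. The cause was not tested. With 1 array left out at a time, 1 enzyme was called higher in OVSAHO cells, 5 to 6 in KURAMOCHI cells, and 2 to 3 were called lower for the difference between the lines. The differences in OVSAHO cells were then -0.22 to 0.023 for HSD17B7 and -0.18 to -0.068 for DHCR7, and the differences between the lines -0.031 to 0.18 for LSS and -0.17 to 0.049 for SC5D. The lone array of a group is then assumed to vary like the other groups.

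Arrays with the same replicate number deviated together only weakly (correlations of 0.000848 to 0.0555). These values cannot show whether arrays of the same number shared a culture or batch, which the labels do not say. With the replicate number as a block, 1 enzyme was called higher in OVSAHO and 6 in KURAMOCHI cells, and 2 were called lower for the difference between the lines, the counts without the block, while the adjusted p of the NSDHL difference between the lines rose to 0.0583. A slide term was not run, as there was 1 slide. A fit of only the groups compared cannot give the difference between the lines. Dim probes, such as SC5D and MSMO1 in OVSAHO cells, have the least signal for a difference to rest on.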

Other observations

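Of 7 listed genes for proteins that hand electrons to these enzymes or assist them, 6 had a probe that was tested, and no probe analysed here carries the name POR. Limma called none of the 6 in either drug comparison, against 2.44% to 5.88% of all genes by direction. The analysis of variance also called 0 of the 6. At an unadjusted p under 0.05, 0 were higher and 3 lower in OVSAHO cells, and 1 was higher and 2 lower in KURAMOCHI cells. At an adjusted p under 0.05, 3 of the 6 were lower with simvastatin in OVSAHO cells, where 27.5% of all genes were. They were CYB5B (-0.66, adjusted p = 0.00795), CYB5A (-0.57, adjusted p = 8.74e-04) and PGRMC1 (-0.53, adjusted p = 0.00286). CYB5A and CYB5B encode cytochromes b5, which carry electrons to membrane oxidases and desaturases, and PGRMC1 encodes a heme protein that binds cytochrome P450 enzymes. In KURAMOCHI cells, where 18.4% of all genes were lower, 2 of the 6 were, CYB5A (-0.50, adjusted p = 0.00281) and CYB5R3 (-0.34, adjusted p = 0.0177), the reductase that serves cytochrome b5.

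FAXDC2, a relative of the sterol oxidase and desaturase family of MSMO1 and SC5D, was called higher with simvastatin in both lines by limma. Its levels in OVSAHO cells were 4.94 and 4.97 with simvastatin and 2.99 and 3.09 with L-778123. In KURAMOCHI cells they were 3.22 and 3.19 with simvastatin and 1.36 and 1.24 with L-778123. The drug difference was 1.91 in both lines (adjusted p = 3.33e-05 in OVSAHO and 1.38e-04 in KURAMOCHI cells), and the difference between the lines was 0.0038 (adjusted p = 0.983). EBPL, a relative of EBP, had drug differences of -0.11 and -0.053, neither of which was called.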
